A study of Mus musculus with 721 samples.

Results

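The 8 genes described here, Iapp, Slc30a8, G6pc2, Slc2a2, Papss2, Ripply3, Ppp1r1a and Gng12, were taken from 32913 entries of a gene expression table of single cells from the embryonic mouse pancreas, and all 8 were found in it. They were selected on 2 readouts of these same cells, the rise of their level with embryonic day and their level in cells with insulin transcripts against cells without, so both patterns are given below as descriptions with no test. The cells came from Neurogenin 3-eGFP mouse embryos, in which green fluorescence marks cells that have switched on Neurog3, the transcription factor that commits pancreatic epithelium to an endocrine fate. At each embryonic day eGFP-positive cells were sorted singly and their whole transcripts copied by the SMART-seq protocol. Of 721 deposited cells, 658 were kept for having at least 100000 mapped fragments and 1500 genes at 1 FPKM (a level normalised for transcript length and sequencing depth) or more. They form 8 cell sets by day and by the run named in the labels. These hold 73 (E11.5), 90 (E12.5), 68 and 78 (E13.5), 94 and 85 (E14.5), 88 and 82 (E15.5) cells. Paired numbers are runs 1 and 2, in that order here and below, and the 2 earliest days have run 1 only. No embryo or litter is named for a cell, so the set is the unit of replication, and the spread between sets may be technical.

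Beta cells release insulin when glucose rises. Glucose enters through a transporter, its first metabolic steps set the rate of ATP production, closure of ATP-sensitive potassium channels then opens calcium channels, and granules of insulin crystallised with zinc are released together with islet amyloid polypeptide. New beta cells of the embryo make insulin before they sense glucose well, and the genes for sensing and storage are known to increase over a long period that extends past birth. Among the 8 genes, Iapp encodes islet amyloid polypeptide, Slc30a8 the zinc transporter ZnT8 of the granule membrane, Slc2a2 the glucose transporter GLUT2, and G6pc2 the islet glucose-6-phosphatase subunit that opposes glucokinase. Papss2 makes the sulfate donor PAPS, Ripply3 encodes a transcriptional corepressor of T-box factors, Ppp1r1a encodes inhibitor-1 of protein phosphatase 1, which acts when phosphorylated by protein kinase A, and Gng12 a gamma subunit of heterotrimeric G proteins.

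In mouse build mm10 (GRCm38, GENCODE vM21) Iapp lies at chr6:142298423-142303961 on the plus strand, G6pc2 at chr2:69211073-69227841 (plus), Slc2a2 at chr3:28697903-28731359 (plus) and Papss2 at chr19:32595790-32667187 (plus). Slc30a8 lies at chr15:52295553-52335798 (plus), Ripply3 at chr16:94328420-94336935 (plus), Ppp1r1a at chr15:103530279-103538003 (minus) and Gng12 at chr6:66896397-67021350 (plus). Iapp overlaps the gene Slco1a5, Slc2a2 overlaps 1700112D23Rik and Gng12 overlaps 3 other annotated genes, and reads of overlapping genes may be shared because no strand-specific counting is stated. RefSeq promoter windows (build GRCm38.p6, 250 bases before to 50 after a start site) matched 5 of the 8 genes. Those of 4 genes are shown because their expression patterns below differ most: Iapp and G6pc2 were also high in glucagon cells, Slc2a2 was scarce there, and Papss2 rose before any hormone. Capitals mark matches to CAGATG on either strand, the E-box form bound by Neurod1 and Neurog3, and to TGCTGAC on either strand, an element bound by MAF factors; TAATTA (both strands) and TATAAA (given strand) were also searched.
Iapp, chr6:142298175-142298474, plus strand: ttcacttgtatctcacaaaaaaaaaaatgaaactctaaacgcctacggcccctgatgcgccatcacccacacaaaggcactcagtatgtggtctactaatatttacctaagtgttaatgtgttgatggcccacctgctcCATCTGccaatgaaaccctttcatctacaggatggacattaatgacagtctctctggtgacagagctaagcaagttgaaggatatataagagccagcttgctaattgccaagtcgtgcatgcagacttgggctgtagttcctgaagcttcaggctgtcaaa
G6pc2, chr2:69219699-69219998, plus strand: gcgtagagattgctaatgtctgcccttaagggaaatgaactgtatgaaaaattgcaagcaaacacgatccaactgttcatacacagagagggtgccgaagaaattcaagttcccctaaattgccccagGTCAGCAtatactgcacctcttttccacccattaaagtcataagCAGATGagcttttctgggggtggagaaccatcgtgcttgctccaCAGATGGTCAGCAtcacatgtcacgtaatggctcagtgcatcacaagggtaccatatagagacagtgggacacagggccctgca
Slc2a2, chr3:28697653-28697952, plus strand: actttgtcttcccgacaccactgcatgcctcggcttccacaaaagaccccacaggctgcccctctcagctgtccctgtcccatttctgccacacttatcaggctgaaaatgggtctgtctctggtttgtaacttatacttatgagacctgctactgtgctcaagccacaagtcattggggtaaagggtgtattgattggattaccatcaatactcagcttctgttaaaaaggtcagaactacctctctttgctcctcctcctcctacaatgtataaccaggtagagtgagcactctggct
Papss2, chr19:32619755-32620054, plus strand: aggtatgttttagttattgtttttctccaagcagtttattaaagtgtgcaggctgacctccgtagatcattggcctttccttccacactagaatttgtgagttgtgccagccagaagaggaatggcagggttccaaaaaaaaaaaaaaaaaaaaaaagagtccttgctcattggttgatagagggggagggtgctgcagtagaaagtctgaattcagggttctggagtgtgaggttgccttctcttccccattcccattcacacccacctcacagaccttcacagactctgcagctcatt

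The Iapp window holds 1 E-box match, 111 bases before the start site on the opposite strand. The G6pc2 window holds E-box matches at −78 and −34 and MAF elements at −122 and −28, and the second of each lie side by side. In the Slc2a2 and Papss2 windows none of the 4 motifs was found, which says only that these letters are not in these windows. Of 32817 RefSeq promoter windows of the same length, 17.17% hold the E-box, 4.671% the MAF element, 5.296% TAATTA and 8.325% TATAAA, so single matches are common. This G6pc2 window precedes transcripts G6pc2-201 and G6pc2-202, which carried 30.2% and 68.8% of the gene's mean FPKM in insulin cells, and the Papss2 window precedes Papss2-201, its only transcript in the deposited table.

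Across all kept cells 7 of the genes had their lowest means before E14.5 and their highest on E15.5, of which Gng12 was already widespread from E13.5, while Slc2a2 had its highest mean on E12.5. Iapp had mean levels of 22.7 FPKM on E11.5, 5.05 on E12.5, 165 and 95.1 on E13.5, 707 and 1095 on E14.5, and 4645 and 7360.2 on E15.5. Both E15.5 sets therefore lay above both E14.5 sets, which lay above every earlier set. Iapp at 10 FPKM or more, the level called detected from here on, was found in 8 of 73 cells on E11.5 and in 63.4% of cells in run 2 of E15.5. G6pc2 was at 1.70 FPKM on E11.5, 1.57 on E12.5, 3.79 and 7.29 on E13.5, 32.9 and 40.1 on E14.5, and 77.9 and 98.7 on E15.5. Slc30a8 was at 0.204 FPKM on E11.5, 1.09 on E12.5, 2.88 and 2.31 on E13.5, 24.04 and 15.52 on E14.5, and 88.2 and 55.9 on E15.5. From E13.5 on the sets of these storage and glucose genes rose with day without overlap, and Iapp stood far above the other 7 genes in both runs of E14.5 and E15.5.

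Papss2, the sulfate donor enzyme, had higher means from E13.5 on than on the 2 days before. Its mean was 2.77 FPKM on E11.5, 3.26 on E12.5, 27.5 and 18.7 on E13.5, 53.5 and 59.1 on E14.5, and 87.9 and 74.4 on E15.5. The corepressor Ripply3 was at 0.0732 FPKM on E11.5, 2.21 on E12.5, 1.80 and 12.4 on E13.5, 28.02 and 21.6 on E14.5, and 35.5 and 78.1 on E15.5, so its runs differed severalfold at E13.5. Ppp1r1a, the phosphatase inhibitor, was at 9.27 FPKM on E11.5, 0.831 on E12.5, 0.779 and 6.81 on E13.5, 6.74 and 12.3 on E14.5, and 62.6 and 86.8 on E15.5. Its E11.5 level thus lay above both E13.5 sets, and its large step came between E14.5 and E15.5. Gng12 was at 35.8 and 27.4 FPKM at the 2 earliest days and at 159.6 and 99.4 on E13.5, 211.4 and 143.5 on E14.5, and 240.4 and 219.9 on E15.5. Its E13.5 and E14.5 sets overlapped, and both E15.5 sets lay above every earlier set. It was detected in 42.5% of cells at E11.5 and in 62.2% to 74.5% of cells from E13.5 on.

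Slc2a2 went against the description of a gene that rises late. Its mean was 19.3 FPKM on E11.5 and 46.7 on E12.5, then 1.95 and 0.728 on E13.5, 1.45 and 5.38 on E14.5, and 23.3 and 20.2 on E15.5. The highest set was E12.5, where 36.7% of cells had it (95% exact Clopper-Pearson interval 26.8% to 47.5%), and on E15.5 it was in 11 of 88 and 12 of 82 cells. Intervals on shares of cells cover counting error only. At E11.5 and E12.5 the transcript was found mainly in cells with acinar or tip markers, such as Cpa1 (a pancreatic protease) and Ptf1a (an acinar and tip transcription factor). Slc2a2 was detected in 16 of 32 E11.5 cells and 26 of 38 E12.5 cells with at least 2 of 7 such markers at 10 FPKM. In leukocyte-marked cells of the same days it was detected in 0 of 18 and 0 of 20, which by the exact interval allows shares up to 18.5% and 16.8%, and in cells with neither marking in 1 of 22 and 6 of 31. Of the 1 cell of each day with both markings, that of E12.5 had it. Slc2a2 was not detected in the 2 insulin cells of E11.5 or in the 3 of E12.5.

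**Figure D1:**
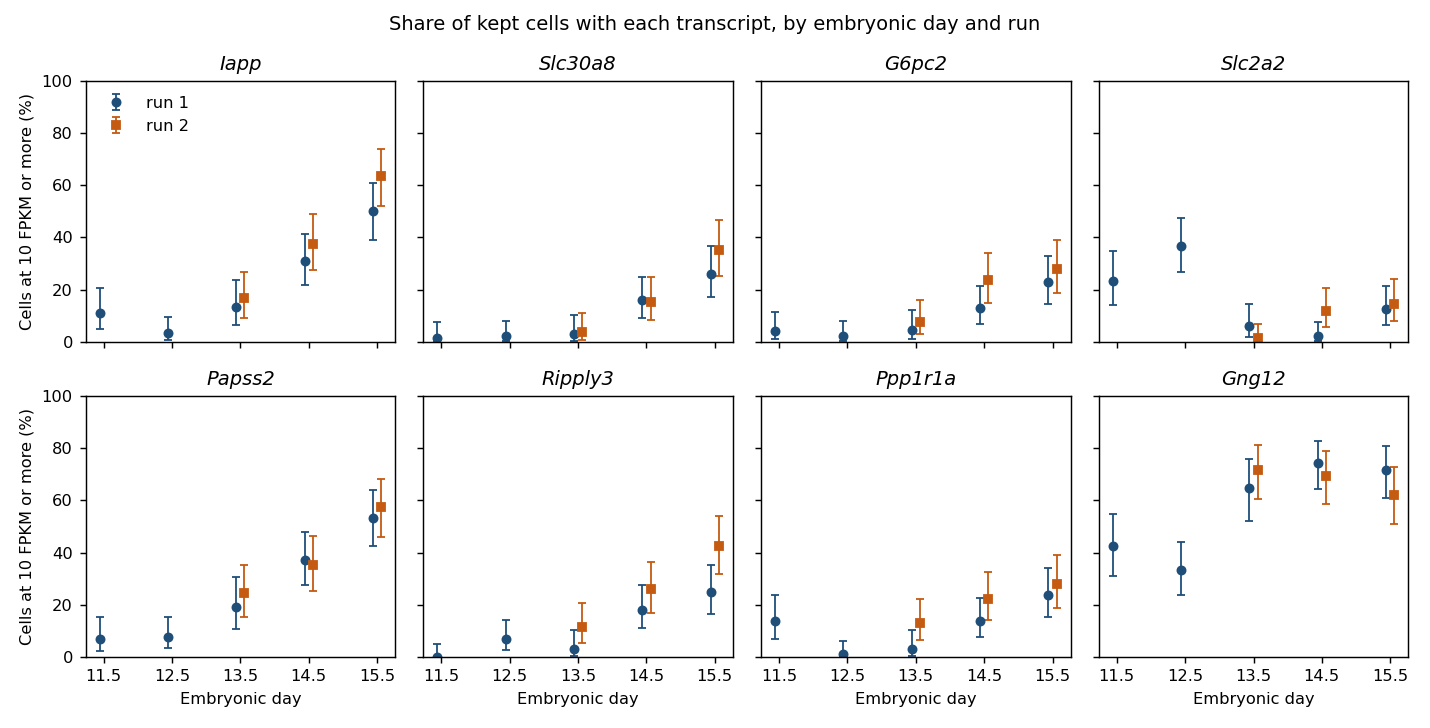
Share of kept cells (percent) with each gene at 10 FPKM or more, against embryonic day, 1 panel per gene; points are cell sets of run 1 and run 2 and bars are 95% exact Clopper-Pearson intervals. Iapp reaches 63.4% in run 2 of E15.5, Gng12 is at 62.2% or more from E13.5 on, and Slc2a2 is highest at E12.5 (36.7%).

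Fitted over the 8 sets as a slope of log2(mean FPKM + 1) per day with run as a covariate, the change was 2.36 ± 0.34 (SE) log2 units per day for Iapp, 1.68 ± 0.17 for Slc30a8, 1.42 ± 0.20 for G6pc2, 1.33 ± 0.19 for Ripply3 and 1.23 ± 0.16 for Papss2. It was 0.90 ± 0.41 for Ppp1r1a, 0.79 ± 0.16 for Gng12 and −0.01 ± 0.48 for Slc2a2, against a median of 0.02 over 16156 genes. Leaving out E11.5 took the slope of Ppp1r1a to 1.75 and leaving out E15.5 run 1 took it to 0.41. With means of log2 values over cells in place of log2 means the slopes were 1.41 for Iapp, 0.60 for Slc30a8, 0.54 for Ripply3, 0.46 for G6pc2 and 0.33 for Ppp1r1a. From E13.5 to E15.5 alone the slope of Slc2a2 was 1.67 and that of Ppp1r1a 2.16. Without cells that carried markers of leukocytes, endothelium or acinar and tip cells, an alternative chosen after seeing the data, the slope of Slc2a2 was 0.57 ± 0.51. In these means over all sorted cells, more cells of a type and more RNA per cell cannot be told apart, and insulin cells made up 2 of 73 cells on E11.5 but 20 of 88 and 23 of 82 on E15.5. On E11.5, E12.5 and E15.5 at least 95.9% of cells in each set had Y-linked transcripts, and on E13.5 and E14.5 no cell did. The steps from E12.5 to E13.5 and from E14.5 to E15.5 therefore cannot be told apart from embryo sex, whereas the levels of E11.5, E12.5 and E15.5, and those of E13.5 and E14.5, compare cells alike in this respect.

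The mature beta cell markers Mafa and Ucn3 were scarce at these ages. Other genes tied to adult beta cell maturity, Entpd3, Vdr and Gjd2, were higher in Fev precursors than in Neurog3 progenitors, as given below. Mafa, the transcription factor of adult beta cells, was not at 10 FPKM in any kept cell. Ucn3, a peptide of mature mouse beta cells, was detected in 1, 2, 6, 3 and 8 cells of the E13.5 run 2, E14.5 run 1, E14.5 run 2, E15.5 run 1 and E15.5 run 2 sets, and in none of the others.

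There were 74 insulin cells, defined by Ins1 or Ins2 at 100 FPKM or more, and 584 kept cells without. Gng12 was detected in 91.9% of insulin cells, Iapp and Papss2 in 85.1% each, Ppp1r1a in 67.6%, Slc30a8 in 64.9%, G6pc2 and Ripply3 in 63.5% each and Slc2a2 in 41.9%. In cells without insulin the shares were 57.5% for Gng12, 23.97% for Papss2, 21.7% for Iapp, 11.3% for Ripply3, 10.1% for Slc2a2, 8.39% for Ppp1r1a, 7.19% for G6pc2 and 6.85% for Slc30a8. Near the threshold, taken on the higher of the 2 genes, the cells on both sides were alike in these counts: of the 15 cells between 100 and 200 FPKM of insulin 7 had Iapp and 0 had Slc2a2, and of the 20 cells between 50 and 100 FPKM 13 had Iapp and 0 had Slc2a2. As a background, in the 14 cells with at least 2 endothelial markers Iapp, Slc30a8, G6pc2, Slc2a2 and Ppp1r1a were not detected in any (an exact upper bound of 23.2%), whereas Ripply3 was detected in 6 and Gng12 in 8. Of the 49 cells with at least 2 leukocyte markers, 4 were insulin cells. Iapp was detected in 10 of the 49, G6pc2, Slc2a2 and Ppp1r1a in 4 each and Slc30a8 in 3. Of the 94 cells with at least 2 acinar or tip markers, 2 were insulin cells. There Iapp was detected in 10, Slc2a2 in 45, Ppp1r1a in 5 and Slc30a8 and G6pc2 in 3 each.

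All 8 genes were detected together in 0 of 8 and 3 of 13 insulin cells of E14.5 and in 6 of 20 and 7 of 23 of E15.5. Most insulin cells of each set thus lacked at least 1 of the 8. Iapp averaged 6428 and 5433 FPKM in the 8 and 13 insulin cells of E14.5 and 18680.3 and 22030 in the 20 and 23 of E15.5. Slc2a2 averaged 15.6 and 31.2 FPKM on E14.5 and 97.5 and 70.7 on E15.5, where it was detected in 10 of 20 and 11 of 23 cells. Ppp1r1a averaged 51.6 and 65.5 FPKM on E14.5 and 224 and 288 on E15.5. For these 3 genes both E15.5 sets lay above both E14.5 sets. Slc30a8 averaged 112 and 77.3 FPKM on E14.5 and 324 and 129 on E15.5, and Ripply3 42.9 and 68.3 FPKM on E14.5 and 99.0 and 169.8 on E15.5, again without overlap. G6pc2 averaged 297 and 130.05 FPKM on E14.5 and 323 and 317 on E15.5, and Gng12 511 and 414 FPKM on E14.5 and 537 and 549 on E15.5, both with the days separate but close. Papss2 overlapped between the days, with 162 and 167 FPKM on E14.5 and 224 and 162 on E15.5.

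The insulin cells of E13.5 run 1 stood apart from the later ones. In all 5 each of the other 7 genes was at 0 FPKM, while Gng12 was detected in all 5 at a mean of 145 FPKM. Their insulin level was 141 to 1803 FPKM and their median depth 1080000 fragments, the highest median among the insulin cells of any set. E13.5 run 1 and E12.5 run 1 as sets had low levels of GC-rich transcripts, and the transcripts of the genes range from 40.5% GC for Iapp to 55.3% for Ppp1r1a; the part of GC content in these zeros was not tested.

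Insulin cells against all other cells, over the 5 sets with at least 5 insulin cells, gave positive changes for all 8 genes, led by 3.45 ± 0.98 (SE) log2 units for Slc2a2, 3.19 ± 0.78 for Ppp1r1a and 3.01 ± 1.03 for G6pc2. Slc30a8 followed at 2.17 ± 0.81, Iapp at 2.15 ± 1.68, Gng12 at 1.56 ± 0.37, Ripply3 at 1.17 ± 0.59 and Papss2 at 0.63 ± 0.99, beside a median of −0.21 over all genes. Each gene was higher in 4 of 5 sets and lower in E13.5 run 1. Without that set the changes were 4.73 for Slc2a2, 4.56 for Iapp, 4.35 for G6pc2, 4.21 for Ppp1r1a, 3.22 for Slc30a8, 2.02 for Papss2, 1.99 for Gng12 and 1.86 for Ripply3. The order of the genes depended on the scale: with means of log2 values over cells the change was 2.29 for Slc2a2, 6.10 for Iapp and 3.84 for G6pc2, and with a pseudocount of 10 FPKM it was 1.83, 2.77 and 2.76.

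Within insulin cells from E14.5 to E15.5 the change was 2.11 ± 0.38 log2 units for Ppp1r1a, 1.86 ± 0.53 for Slc2a2, 1.78 ± 0.15 for Iapp, 1.25 ± 0.42 for Ripply3 and 1.13 ± 0.37 for Slc30a8. It was 0.70 ± 0.33 for G6pc2, 0.24 ± 0.27 for Gng12 and 0.21 ± 0.34 for Papss2. The median over all 13825 genes in this comparison was 0.67, so in this fit G6pc2, Gng12 and Papss2 were near or below the general shift and the other 5 above it. Of all genes 69.8% lay below Slc30a8 and 73.9% below Ripply3. With cells rescaled without hormone, mitochondrial, predicted and small RNA genes Ppp1r1a was at 1.41, Iapp at 0.95, Slc2a2 at 0.84 and Slc30a8 at 0.71. Ripply3 was then at 0.06, G6pc2 at 0.003, Gng12 at −0.46 and Papss2 at −0.55. With means of log2 values over cells Ripply3 was at 0.15 and Slc30a8 at 1.97. Day cannot be told apart from embryo sex in this comparison.

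The genes differed in how strictly they followed beta rather than other endocrine cells. The 51 glucagon cells have Gcg at 100 FPKM or more and both insulin genes below it, and are named by these transcripts alone. All 51 had at least 2 of 6 alpha cell markers, of which Gcg is one. Of the 51, 20 had both pancreatic polypeptide cell markers and 23 at least 2 of 4 endocrine progenitor markers. Iapp was detected in 64.7% of the glucagon cells, Papss2 and Gng12 in 60.8% each and Ripply3 in 39.2%. Slc30a8 and Ppp1r1a were detected in 31.4% each, G6pc2 in 27.5% and Slc2a2 in 5.88%. Over the 3 sets with at least 5 cells of each class, insulin cells exceeded glucagon cells by 4.39 ± 0.93 log2 units for Slc2a2, 3.68 ± 0.57 for Ppp1r1a, 3.27 ± 0.58 for Gng12, 2.07 ± 0.36 for Iapp, 1.83 ± 0.84 for G6pc2, 1.14 ± 0.53 for Slc30a8 and 0.43 ± 0.42 for Papss2. Ripply3 was at −0.26 ± 0.46, close to the median of −0.25 over all genes. G6pc2 was lower in insulin cells in E14.5 run 2 (130.05 against 257 FPKM), and its change was 0.69 without E14.5 run 1 and 3.23 without E14.5 run 2. With sets of at least 3 cells admitted, 4 of the 8 changes were positive instead of 7, and Iapp was at −0.67, Slc30a8 at −0.22 and Papss2 at −0.29. With hormones at 1000 FPKM Iapp was at 0.41 and Slc30a8 at −0.02.

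Insulin cells with and without glucagon were also set side by side. Slc2a2 was detected in 23 of 42 insulin-only cells, which have no other hormone at 100 FPKM (54.8%, exact interval 38.7% to 70.2%), in 1 of 17 cells with both hormones (5.88%, 0.149% to 28.7%) and in 3 of 51 glucagon cells. On E14.5 and E15.5 it was in 1 of 3, 8 of 9, 6 of 9 and 8 of 16 insulin-only cells of the 4 sets, and in 0 of 4, 0 of 3, 0 of 4 and 1 of 2 double cells. Among the other genes Iapp was in 83.3% of insulin-only cells and 88.2% of double cells, Papss2 in 80.95% and 94.1%, Ppp1r1a in 66.7% and 70.6%, and Slc30a8 in 61.9% and 64.7%. G6pc2 and Ripply3 were each in 66.7% and 52.9%, and Gng12 in 97.6% and 82.4%. These shares have no test and pool sets of unlike make-up: 9 and 16 of the insulin-only cells but 4 and 2 of the double cells were from E15.5.

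**Figure D2:**
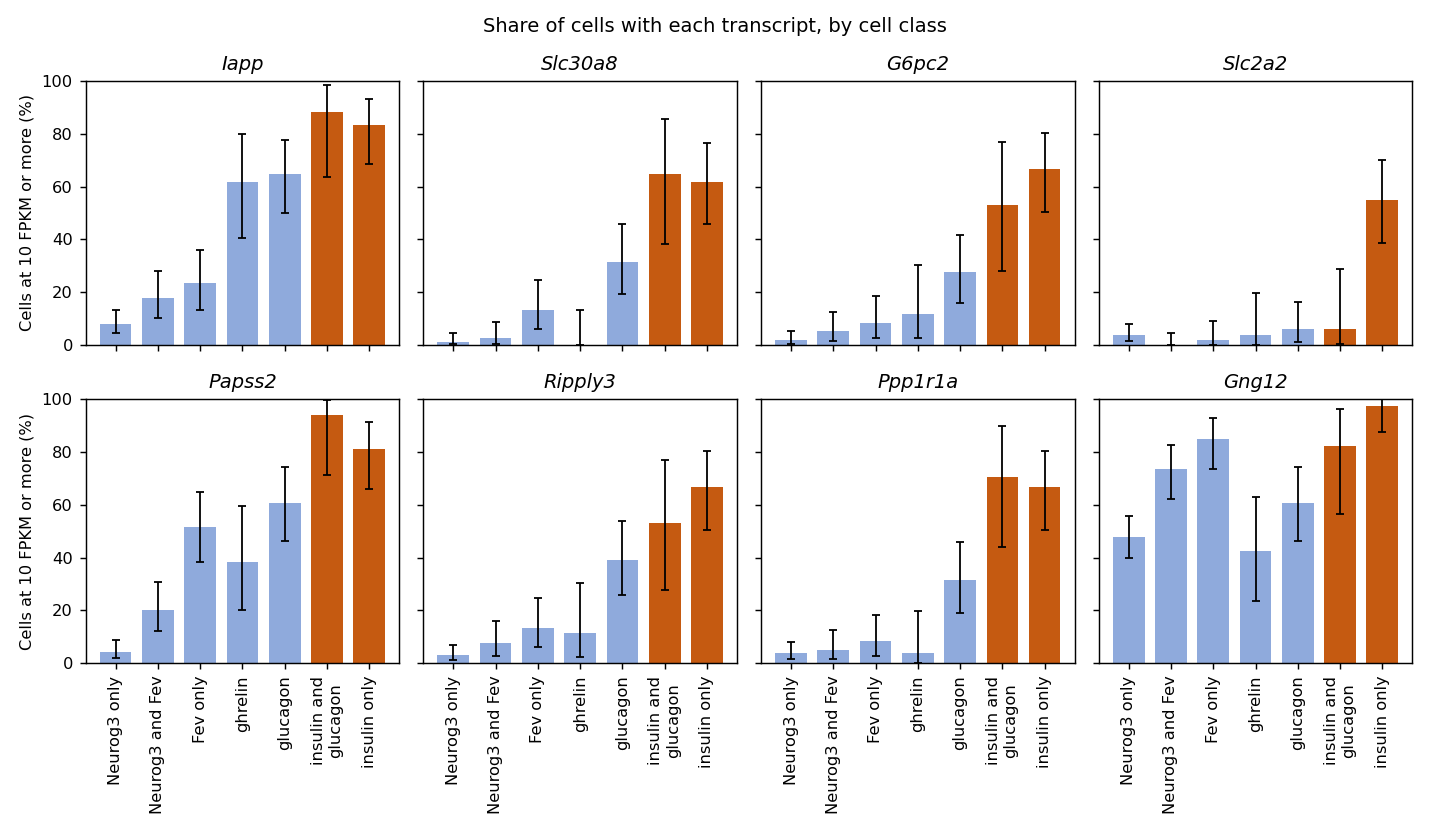
Share of cells (percent) with each gene at 10 FPKM or more in cell classes, 1 panel per gene; bars are 95% exact Clopper-Pearson intervals. Slc2a2 is at 54.8% in insulin-only cells and 5.88% in glucagon cells, while Papss2 is at 51.7% in Fev precursors, defined with hormone genes below 100 FPKM.

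Glucagon cells were compared with endocrine cells without hormone, a test that leaves out the insulin cells. The reference cells have Neurog3 or Fev at 10 FPKM or more. None of their hormones (insulin, glucagon, somatostatin, ghrelin or pancreatic polypeptide) is at 100 FPKM or more. Both classes may hold insulin below 100 FPKM. Of all kept cells 61 had it at 10 to 50 FPKM and 20 at 50 to 100 FPKM. Over 5 sets limma's moderated test, with the set as a block and Benjamini-Hochberg adjustment over 15472 genes, called 2 of the 8 genes higher and 0 lower, where 0.142% of all genes were called higher and 0.0194% lower. Iapp was at 59.2, 331, 627, 2083 and 7989 FPKM in glucagon cells of E12.5 run 1, E13.5 run 2, E14.5 runs 1 and 2 and E15.5 run 2, and at 0, 41.8, 45.8, 72.8 and 93.4 FPKM in the reference cells of the same sets. It was higher in 5 of 5 sets, and rose by 4.77 ± 0.50 log2 units (limma adjusted p = 0.0124). G6pc2 was at 25.7, 26.8, 16.2, 257 and 61.4 FPKM against 0, 0.488, 2.10, 2.05 and 3.38, and rose by 4.33 ± 0.61 (limma adjusted p = 0.0379), also in 5 of 5 sets. Every glucagon set of G6pc2 lay above every reference set, and Iapp in glucagon cells was lowest in the E12.5 and highest in the E15.5 set.

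The other changes in glucagon cells did not pass. Slc30a8 had 3.05 ± 0.49 log2 units (limma adjusted p = 0.0655), Papss2 2.79 ± 0.49 (0.0870) and Ripply3 2.83 ± 0.64 (0.153), each higher in 5 of 5 sets. Ppp1r1a had 1.49 ± 0.69 (limma adjusted p = 0.462), and Slc2a2 and Gng12 were at −0.18 ± 0.65 and −0.20 ± 0.59, so no increase was detectable for the glucose transporter. The calls were not secure. Leaving out E14.5 run 1, E14.5 run 2 or E15.5 run 2 left 0 of the 8 genes called (Iapp at limma adjusted p = 0.0532, 0.0989 and 0.0504). Leaving out E12.5 run 1 left Iapp alone. With sets of at least 3 cells admitted 4 passed, Slc30a8 (0.00384) and Papss2 (0.0137) being added, but the share of all genes called there is not given. With the hormone threshold at 10 FPKM none of the 8 passed. Iapp was then at 3.40 (limma adjusted p = 0.559), G6pc2 at 2.68 (0.524) and Slc30a8 at 0.56 (0.844). The granule genes as a list had 14 of 14 tested members above 0 in glucagon cells with a median of 1.82 log2 units beside −0.02 for all genes, but 0 of them passed, as of every other list named below, Scg2, a secretogranin, being highest at 4.31 (limma adjusted p = 0.0713).

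The step from Neurog3 progenitors to Fev precursors comes before hormones. Fev is a transcription factor of newly committed endocrine precursors, and the 60 Fev precursors have Fev without Neurog3 or hormone, while the 163 progenitors have Neurog3 without Fev. Over 6 sets limma called 3 of the 8 genes higher and 0 lower, beside 2.92% of 14850 genes higher and 4.25% lower. Papss2 was at 64.6, 37.9, 55.1, 52.8, 93.7 and 69.9 FPKM in Fev precursors of E13.5, E14.5 and E15.5 (runs 1 and 2 in turn) and at 2.14, 0.107, 1.03, 10.4, 2.72 and 0.143 FPKM in progenitors. Every precursor set lay above every progenitor set, and the gene rose by 4.53 ± 0.49 log2 units (limma adjusted p = 0.000618, 6 of 6 sets). It was detected in 4.29% of progenitors, 20.3% of the 79 cells with Neurog3 and Fev, 51.7% of Fev precursors and 85.1% of insulin cells.

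Ripply3 was at 5.68, 13.01, 9.91, 7.67, 34.3 and 7.80 FPKM in Fev precursors and at 0, 0.976, 1.84, 1.81, 7.96 and 0.557 FPKM in progenitors of the same sets, a rise of 2.27 ± 0.42 (limma adjusted p = 0.0104, 6 of 6 sets). The groups overlapped across sets but not within one. Gng12 was at 413, 60.99, 255, 146, 323 and 189 FPKM against 128, 79.5, 90.5, 73.96, 58.6 and 22.6 FPKM, and rose by 1.54 ± 0.38 (limma adjusted p = 0.0406, 5 of 6 sets), with E13.5 run 2 going the other way. Leaving out any 1 of the other 5 sets took its adjusted p to between 0.0641 and 0.114, while Papss2 and Ripply3 passed without any 1 set. Iapp had 2.67 ± 0.71 log2 units (limma adjusted p = 0.0525, 5 of 6 sets, 0 FPKM on both sides in E13.5 run 1), and passed without E13.5 run 1 (0.0324).

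The remaining genes gave no call in Fev precursors: Slc30a8 had 2.11 ± 0.75 log2 units (limma adjusted p = 0.142), G6pc2 1.61 ± 0.71 (0.244), Ppp1r1a 0.59 ± 0.56 (0.590) and Slc2a2 0.00 ± 0.70. Slc2a2 was detected in 1 of 60 Fev precursors and 0 of 79 cells with Neurog3 and Fev, which allows a share of up to 4.56%. With the hormone threshold lowered to 10 FPKM only Papss2 passed (limma adjusted p = 0.00104; Ripply3 0.221), and with Neurog3 and Fev set at 50 FPKM, which left 2 sets, none of the 8 passed and Ripply3 was at −0.38.

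**Figure D3:**
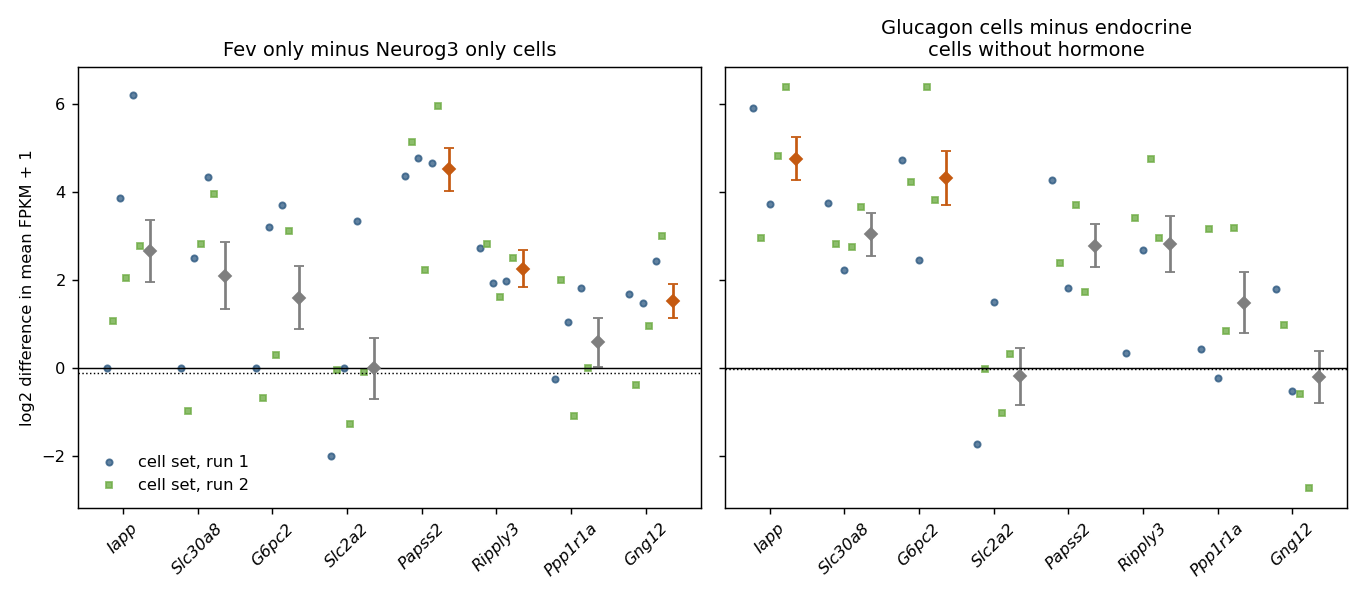
Log2 change (y axis, difference in log2 of mean FPKM + 1) of each gene in the comparisons; diamonds are fitted changes with SE bars, coloured where the adjusted p is under 0.05, small points are single sets by run and the dotted line is the median change of all genes tested. Papss2, Ripply3 and Gng12 are coloured in Fev precursors and Iapp and G6pc2 in glucagon cells.

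Related genes were followed through the same step in 8 lists. Of 14 tested genes of granules and prohormone processing 12 rose and 0 fell from progenitors to Fev precursors, with a median of 2.52 log2 units beside −0.11 for all genes. Chga, a chromogranin, rose by 4.48 ± 0.53 (limma adjusted p = 0.00112) and Pcsk2, the prohormone convertase that also processes proglucagon, by 3.76 ± 0.52 (0.00249). Of 21 tested genes of glucose sensing and secretion 7 rose and 0 fell (median 1.16), led by Gpr119, a lipid receptor, at 3.61 ± 0.62 (limma adjusted p = 0.00768), the SNARE gene Stx1a at 2.64 and Abcc8, the sulfonylurea receptor of the potassium channel, at 2.57 (0.000420). Of 17 tested genes of G protein, protein kinase A and phosphatase 1 signalling, the setting of Gng12 and Ppp1r1a, 8 rose and 0 fell (median 0.46), led by the alpha subunit Gnao1 at 3.10 and the beta subunit Gnb5 at 3.03.

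Of 17 tested beta cell transcription factors 6 rose and 2 fell, Pax6 by 3.40 ± 0.46 among the former (limma adjusted p = 0.00207). Of 6 tested genes of adult beta cell maturity 3 rose (Entpd3, an ectonucleotidase, by 4.56, Vdr, the vitamin D receptor, by 3.26 and the gap junction gene Gjd2 by 2.52), and of 6 tested genes held low in adult beta cells 3 fell (Zyx at −2.88, Acot7 at −2.33 and Oat at −2.32). Of 19 tested relatives of the 8 genes in their own families 0 rose and 1 fell, the G protein gamma subunit Gng13, at −4.76 ± 0.75 (limma adjusted p = 0.00492). Of 8 sulfation genes 0 passed, and Papss1, the other PAPS synthase, had 0.68 ± 0.23 (limma adjusted p = 0.124) beside the 4.53 of Papss2.

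The 26 ghrelin cells, with Ghrl at 100 FPKM or more and insulin and glucagon below it, share the reference cells of the glucagon comparison. Over 6 sets with at least 3 cells limma called 0 of the 8 genes at adjusted p under 0.05, beside 0.294% of 15329 genes higher and 1.07% lower (335 and 2038 genes at unadjusted p under 0.05). Slc30a8 was not detected in any ghrelin cell (0 of 26, exact upper bound 13.2%), but also in only 12 of the 302 reference cells. Its change was −1.69 ± 0.61 log2 units, with an unadjusted p of 0.0177 in limma and an adjusted p of 0.211. Gng12 had −1.83 ± 0.67 (limma adjusted p = 0.219). Iapp was detected in 61.5% of ghrelin cells and 13.6% of the reference cells. Its mean was 231 FPKM in ghrelin cells beside 2779 FPKM in glucagon cells. The Iapp change was 1.27 ± 1.28 (limma adjusted p = 0.652), higher in 5 of 6 sets with the lowest set at −6.21. Without E14.5 run 2 it was 2.76 (limma adjusted p = 0.188). Ppp1r1a and Slc2a2 were each in 1 of 26 cells. In the lists, Isl1, a pan-islet homeodomain factor, rose by 2.96 and Scg2 by 4.0045, while Chgb, a chromogranin, fell by 5.29 and Gng13 fell by 4.18 (limma adjusted p = 0.00289, 0.0446, 0.00335 and 0.0147).

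Among insulin cells the genes differed with the amount of insulin transcript. With Ins1 and Ins2 summed, 26 cells had 100 to 1000 FPKM, 15 had 1000 to 10000, 17 had 10000 to 100000 and 16 had 100000 or more. From the lowest to the highest class Iapp was detected in 18, 12, 17 and 16 cells, G6pc2 in 9, 7, 16 and 15, Slc30a8 in 12, 6, 15 and 15 and Ppp1r1a in 13, 8, 13 and 16. Slc2a2 was in 3, 7, 7 and 14 cells, or 11.54% of the lowest class and 87.5% of the highest, and only in the highest did most cells have it. These classes mix day with insulin level, since E15.5 gave 13, 4, 11 and 15 of their cells. Among these E15.5 cells Slc2a2 was in 1, 2, 4 and 14, G6pc2 in 4, 2, 11 and 14 and Iapp in 11, 4, 11 and 15. Over all days Ripply3 went from 38.5% to 93.8% and Papss2 from 76.9% to 100%, while Gng12 was at 80.8% or more in each class. FPKM is a share of the library, and the part of insulin transcripts in the levels of the other genes was not tested.

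**Figure D4:**
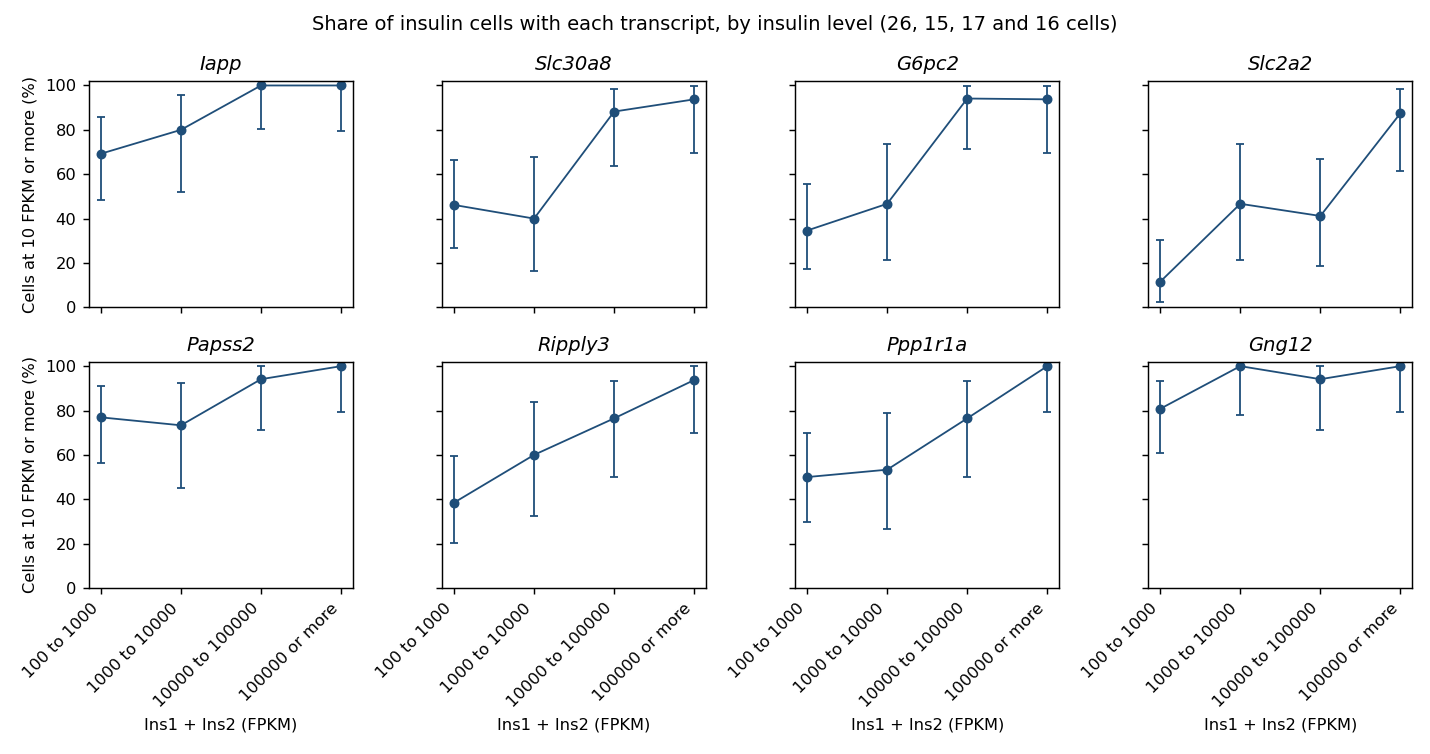
Share of insulin cells (percent) with each gene at 10 FPKM or more in 4 classes of insulin level (summed FPKM of Ins1 and Ins2), 1 panel per gene; bars are 95% exact Clopper-Pearson intervals. Slc2a2 runs from 11.54% to 87.5%, and Gng12 is at 80.8% or more in each class.

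Over 4 sets with at least 3 cells of each class, 33 cells with insulin at 10000 FPKM or more were compared with 41 below. Ppp1r1a was at 101, 135, 321 and 424 FPKM in the high class of E14.5 runs 1 and 2 and E15.5 runs 1 and 2, and at 22.1, 34.7, 105 and 34.1 FPKM in the low class. It was higher in 4 of 4 sets by 2.32 ± 0.44 log2 units. The 8 genes were chosen for their level in insulin cells, so their changes with insulin level are read as a description. G6pc2 had 2.12 ± 0.58, Slc30a8 1.61 ± 0.47, Gng12 1.56 ± 0.35 and Ripply3 1.20 ± 0.40, each higher in 4 of 4 sets. Iapp had 1.83 ± 0.82 (higher in 2 of 4 sets), Papss2 0.89 ± 0.45 (3 of 4) and Slc2a2 −0.40 ± 0.95 (3 of 4). The lowest set of Slc2a2 was at −4.70, and without E14.5 run 1 its change was 1.03. With cells rescaled without hormone, mitochondrial, predicted and small RNA genes the change was 1.82 for Ppp1r1a, 1.52 for G6pc2 and 1.39 for Slc30a8. It was then 1.00 for Gng12, 0.72 for Ripply3, 1.59 for Iapp, 0.49 for Papss2 and −0.76 for Slc2a2. No gene of the table passed the adjusted threshold in either direction (0.0% of 13881 genes, with 591 higher and 216 lower at unadjusted p under 0.05), so 0 of the 8 did. With insulin cells defined at 1000 FPKM the change was 3.54 for Iapp, 3.60 for G6pc2, 2.53 for Ppp1r1a and 2.44 for Slc30a8. It was 2.07 for Ripply3, 1.46 for Gng12, 1.35 for Papss2 and 0.13 for Slc2a2. In the fit with insulin cells at 100 FPKM the median over all genes was 0.16 log2 units.

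The number of the 8 genes in a single cell is a description, since they were chosen for their level in insulin cells. The median number of the 8 genes detected was 1 of 8 in the 163 Neurog3 progenitors, 1 in cells with Neurog3 and Fev, 2 in Fev precursors, 1.5 in ghrelin cells, 3 in glucagon cells and 6 in insulin cells. Of the 74 insulin cells 16 had all 8, and of the 33 with high insulin 32 had 6 or more. Among 43 insulin cells of E15.5, 41 had Iapp, 35 Slc30a8, 31 G6pc2, 30 Ripply3, 30 Ppp1r1a and 21 Slc2a2. Of the 31 cells with G6pc2 19 had Slc2a2, and of the 12 without it 2 did. As a description over these 43 cells, which come from 2 runs and differ in depth, Spearman's rho with Ins2 was 0.67 for Ppp1r1a, 0.63 for Gng12, 0.61 for G6pc2, 0.57 for Slc2a2, 0.56 for Iapp and Papss2, 0.43 for Slc30a8 and 0.41 for Ripply3. With Gcg it was −0.36 for Slc2a2, and with the number of fragments 0.62 for Papss2 and 0.56 for Iapp.

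Over all 658 kept cells, genes among those whose log2(FPKM + 1) had the highest Pearson r with the mean of the 8 standardised genes, out of 12344, were Pcsk2 (0.72), the secretogranin Scg2 (0.71), the granule docking gene Sytl4 (0.64), the retinol carrier Rbp4 (0.63), Ociad2 (0.62), Ank, a pyrophosphate transporter (0.59), Tmsb15b2 (0.59) and the hormones Gip (0.59) and Pyy (0.58). Ins2 and Ins1 had 0.71 and 0.70. The 8 genes were chosen for their level in insulin cells among these same cells, so these correlations are a description. By gene, Iapp was closest to Scg2 (0.76) and Papss2 to Pcsk2 (0.72), and Slc30a8, G6pc2, Ripply3 and Ppp1r1a were each closest to Pcsk2 or Scg2 once the insulins and the other 7 genes were set aside. Slc2a2 differed, being closest to the amino acid transporter Slc38a4 (0.48), the basement membrane gene Frem2 (0.47) and Gc, the vitamin D binding protein (0.46), and Gng12 was closest to Dbpht2 (0.47) and Chgb (0.46). Between Iapp and the other genes r was 0.69 for Papss2, 0.68 for G6pc2, 0.65 for Ppp1r1a, 0.61 for Slc30a8, 0.60 for Ripply3, 0.33 for Gng12 and 0.23 for Slc2a2.

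The 2 runs could be compared at E13.5, E14.5 and E15.5. Limma called 0 of the 8 genes between runs, beside 0.622% of 15744 genes higher and 0.0889% lower in run 2. Ppp1r1a had the largest difference, 1.13 ± 0.41 log2 units higher in run 2 (limma adjusted p = 0.300, higher on 3 of 3 days), and Ripply3 had 1.00 ± 0.54 (0.421, higher on 2 of 3 days). A pair of E14.5 insulin cells, 1 from each run, was more alike than any other pair between runs of that day (r = 0.87, next 0.72). Leaving out the run 2 cell, chosen after seeing the data, moved the Iapp mean of that set's insulin cells from 5433 to 5789 FPKM and changed no call of the 8 genes. Of the 74 insulin cells 4 had at least 2 leukocyte markers, 2 had at least 2 acinar or tip markers and 0 had 2 endothelial markers. Markers of other pancreatic cells were common in them: 65 had at least 2 of 6 alpha cell markers, 27 both pancreatic polypeptide cell markers, 30 at least 2 of 5 duct or trunk markers and 23 at least 2 of 4 endocrine progenitor markers. Their part in the levels of the 8 genes was not tested.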

How the data were processed

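Gene and transcript levels are FPKM values that the authors deposited. The tools named per the submitters' processing notes are Cufflinks 2.2.0 and TopHat2 2.0.13, with build mm10, and no source used here states further scaling between cells. Kept cells had 101675 to 1990000 fragments (median 587177, per the labels), and 63 cells were left out. SMART-seq has no molecular identifiers, so intervals cover counting error only. No doublet caller was run.

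Mean FPKM per cell set and class was tested as log2(mean + 1) with limma 3.58.1 (trend, set as block where classes are compared) in R 4.3.3, on genes with a mean of at least 1 FPKM, with Benjamini-Hochberg adjustment over all genes tested and a threshold of 0.05. A log2 change with this pseudocount understates the change of low genes. A class entered with at least 5 cells in a set. For ghrelin cells and for high against low insulin this left fewer than 3 sets, so 3 cells were used, decided after the files were seen. The scripts were tested on simulated data. Shares, intervals and correlations used Python 3.11.15, numpy 2.4.6, pandas 2.3.3 and scipy 1.17.1. The 8 genes and the lists were chosen with earlier results of these data known. Named genes are the 8, the 10 most correlated with their mean and the 3 with each, and per list up to 4 that passed, or else the 2 that changed most. One gene that this rule names is not reported here. Alternatives changed the pseudocount, filter, averaging, scaling, depth, thresholds and sets.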

Additional observations from a re-analysis of the deposited data

Results flagged for a closer look

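In groups of 4 to 10 sets the highest or lowest set was compared with the others by the 95% limit of Dixon's test, which by chance exceeds the limit in about 1 of 20 groups, and 40 groups were checked. In insulin cells against other cells, E13.5 run 1 lay far below the other 4 sets for Iapp (−7.49 log2 units), Papss2 (−4.94), Slc2a2 (−1.63) and Ppp1r1a (−0.88). In this set the 5 insulin cells had a median of 1080000 fragments, and the part of GC content or of cell type in these values was not tested. Slc2a2 in Fev precursors against Neurog3 progenitors lay far above the other sets in E15.5 run 1 (3.35), where 1 of 60 Fev precursors over all sets had the transcript. Slc2a2 in ghrelin cells against endocrine cells without hormone lay far above the others in E13.5 run 2 (3.59), where 1 of 26 ghrelin cells over all sets had it. Iapp in high against low insulin cells was negative in both run 1 sets and positive in both run 2 sets, with a difference of 4.17 log2 units between runs that was not tested.

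Among the 63 cells left out for depth or gene number, which enter no comparison, Iapp was at 10 FPKM or more in 12, Gng12 in 12 and G6pc2 in 4, and 9 of the 12 cells with Iapp were from E15.5.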

How the results depend on the processing

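Of 1169 values of single genes under alternatives, 947 kept their direction and side of the threshold, or moved by less than their SE where no test applies. In glucagon cells the number of the 8 genes called, 2 as reported, was 0 with a pseudocount of 10 FPKM, no filter, cells with at least 300000 fragments, hormones at 10 FPKM or without marked cells of other types (chosen after seeing the data), 1 with a pseudocount of 0.1, rescaling, Neurog3 and Fev at 50 FPKM or without the GC-poor sets (E12.5 run 1 and E13.5 run 1), 4 with sets of at least 3 cells, 5 with means of log2 values, and 0 to 2 without single sets. In Fev precursors, 3 as reported, it was 1 with hormones at 10 FPKM, 0 with Neurog3 and Fev at 50, 2 with a pseudocount of 10, no filter or without marked cells (Gng12 being lost), and 4 with rescaling or hormones at 1000. In ghrelin cells, 0 as reported, it was 1 with means of log2 values, and in high against low insulin it was 2 with means of log2 values, 1 with hormones at 10 or a split at 30000 FPKM and 3 with hormones at 1000. Insulin cells exceeded glucagon cells in 4 genes with sets of at least 3 cells, instead of 7. The causes were not tested. These counts are not set beside the share of all genes called under each alternative, so they do not show a change particular to the 8 genes. For high against low insulin they only describe the 8 genes.

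Signs changed as follows. In glucagon cells Gng12 was 0.41 with means of log2 values and −0.70 to 0.42 without single sets, and Slc2a2 was 0.0090 with hormones at 10 FPKM and −0.60 to 0.027 without single sets. In Fev precursors Slc2a2 was −0.37 with a pseudocount of 0.1, and Iapp, Ripply3 and Ppp1r1a were −0.41, −0.38 and −0.068 with Neurog3 and Fev at 50. In ghrelin cells Slc2a2 was 0.068 with a pseudocount of 10, 0.070 with 300000 fragments, 0.19 without the GC-poor sets, 0.12 with Neurog3 and Fev at 50 and 0.023 without marked cells. There Ripply3 was 0.058 with a pseudocount of 10 and 0.36 with means of log2 values, and Papss2 was 1.29 with means of log2 values and 0.60 with Neurog3 and Fev at 50. In high against low insulin Slc2a2 was 0.22 with a pseudocount of 10, 1.55 with means of log2 values, 1.00 and 0.13 with hormones at 10 and 1000, and 1.95 and 1.25 with splits at 3000 and 30000. Between runs Slc30a8 and Papss2 were 0.070 and 0.16 with means of log2 values. Without single sets the values spanned −0.12 to 0.19 for Slc2a2, −0.011 to 1.19 for G6pc2 and −1.01 to 0.080 for Papss2 in ghrelin cells, −1.05 to 1.03 for Slc2a2 in high against low insulin, and −0.080 to 0.65 for Iapp and −0.48 to 0.59 for Slc2a2 between runs. Insulin cells of E15.5 against E14.5 could not be fitted without single sets, since no residual degrees of freedom remain. No paired analysis was possible because the shared numbers in the labels count single cells and name no animal or litter; comparisons of classes took the set as a block.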
